A study of Homo sapiens with 4 samples.

Results

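The genes described here are the expressed members of the ZNF gene family in K562 cells, a human erythroleukaemia line, with and without a knockdown of DROSHA. They are the protein-coding rows of the authors' deposited table whose symbol is ZNF followed by digits and whose mean over the 4 libraries was at least 500 normalised reads. ZNF473, which works in histone mRNA processing, was left out by the rule. This gave 240 genes of the 58037 rows of the table, and of 515 protein-coding ZNF rows of any mean. Among the 240, 19 symbols carry a suffix after the digits, such as ZNF33A or the read-through gene ZNF511-PRAP1. The members were chosen by their measured mean, so their levels are given as a description.

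The knockdown group was 2 libraries of K562 cells given a lentivirus with CRISPR against DROSHA, and the control group was 2 libraries of K562 cells given a lentivirus with non-specific CRISPR. Both groups were selected with puromycin at 2.5 ng/μl and were at passages 25 to 30, per the labels. The guide sequences, whether the cells were a pool or single clones, and whether the libraries of a group came from separate cultures were not given in the sources used here. The p-values therefore cover only how these libraries vary, and that variation may be technical. Total RNA was sequenced, and mature microRNAs are not measured by such libraries.

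C2H2 zinc fingers are short folds held by a zinc ion, and runs of them read DNA sequence. Many ZNF proteins also carry a KRAB box, which recruits the corepressor TRIM28 and with it the histone methyltransferase SETDB1, and these proteins silence transposable elements. Other members work outside DNA binding, in ribosome biogenesis, ribosome quality control, splicing or mitosis. DROSHA cuts primary microRNA transcripts in the nucleus. The repeated finger coding sequence of ZNF genes is known to hold many copies of the sites paired by the seeds of miR-181 and miR-23, so the sequences are shown first.

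The mature microRNAs below were taken from the RefSeq table of build GRCh38.p14, with the seed (bases 2 to 8) in capitals. The miR-181a-5p sequence lies at chr1:198859108-198859130 on the minus strand and again at chr9:124692480-124692502 on the plus strand. That of miR-23a-3p lies at chr19:13836595-13836615 on the minus strand, and that of miR-17-5p at chr13:91350618-91350640 on the plus strand. No seed is shared among these 3.
miR-181a-5p: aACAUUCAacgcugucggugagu
miR-23a-3p: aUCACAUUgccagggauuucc
miR-17-5p: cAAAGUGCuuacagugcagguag

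The letters that pair with the miR-181a-5p seed, TGAATGT, were searched on the sense strand of the GENCODE 29 principal transcript, which was found for 239 of the 240 members. They stood in the coding sequence of 149 members (62.3%), against 12.9% of the other protein-coding genes of mean at least 500. The share was 40.0% in 50 genes of other C2H2 families (ZBTB, ZSCAN, ZKSCAN and ZFP). The density was 1.59 matches per kb of coding sequence in the members, 0.608 per kb in those families and 0.0876 per kb in the other protein-coding genes. The letters for miR-23a-3p, AATGTGA, stood in 122 members (51.0%), against 34.0% of the other C2H2 genes and 14.7% of the other protein-coding genes. The letters of both can overlap, and did so at 48 places in the members. The letters for miR-17-5p, GCACTTT, stood in the coding sequence of 7.95% of the members and 9.99% of the other protein-coding genes. In the 3′ UTR they stood in 35.1% of the members, 38% of the other C2H2 genes and 22.8% of the other protein-coding genes. The 3′ UTR share was therefore not particular to ZNF genes. Median 3′ UTR length was 1554, 2492 and 1113 nt in the same order, and no density per kb was computed for this region. A match is a description of letters, not a shown binding site.

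The sites below, with the paired letters in capitals, show how 1 gene repeats them. ZNF717 lies at chr3:75678660-75785583 on the minus strand (GRCh38, GENCODE 29) and held 25 matches, the most of any member. ZNF12, at chr7:6688433-6706923 on the minus strand, held 18. Of their 23-base stretches around the letters, 4 are identical in both genes, the one at base 975 of ZNF12 among them. All lie in the coding sequence, where they are part of the finger repeats.
ZNF717, base 1296 of the coding sequence: gaatgcaaTGAATGTgggaaaac
ZNF717, base 1539: aaaccctaTGAATGTaatgaatg
ZNF717, base 1548: gaatgtaaTGAATGTggaaaatc
ZNF12, base 1572: gaatgtagTGAATGTgggaaaac
ZNF12, base 975: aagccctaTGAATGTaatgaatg

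Neighbouring fingers are joined by a short conserved linker, whose coding letters are in capitals below. The same stretch in 3 members is shown because near-identical repeats bear on how well short reads can be placed. ZNF721 lies at chr4:425815-499156 and ZNF529 at chr19:36534774-36605276, both on the minus strand.
ZNF721: catACTGGAGAGAAACCTtacaaatgt
ZNF529: catACTGGTGAGAAACCCtacaaatgt
ZNF12: cacACAGGAGAGAAACCTtacgaatgt

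DROSHA itself, the targeted gene, was read at 2734 and 2770 normalised reads in the knockdown libraries, against 6107 and 6077 in the control libraries. The groups did not overlap. The authors' deposited table gives it a log2 fold change of -1.15 (DESeq2 adjusted p = 8.1e-14). The table does not state the direction of its fold changes, and the negative value of DROSHA is the ground for reading them as knockdown over control. The values of single libraries were recovered from the deposited means, which are sums of whole reads divided by size factors. They are named deeper and shallower within each group because replicate numbers could not be tied to them. All 9 markers of K562 cells had means of 2492 to 156201 normalised reads in the authors' deposited table, GATA1 and the fetal and embryonic globin genes among them. Of 10 genes listed as markers of other cells, LUM and MS4A1 were at 0 in that table, and only EPCAM (2755) and PTPRC (2406) were above 100. EPCAM was above the lowest of the K562 markers, LMO2 (2492), and PTPRC was close to it. These genes therefore do not set K562 cells apart. CDKN2A, which is deleted in K562 cells, was at 0 in the authors' deposited table. In bulk RNA, fewer cells that use a gene and less RNA per cell cannot be told apart.

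No ZNF gene passed the test in either direction. In the authors' deposited table, 0 of the 240 were called higher and 0 lower in the knockdown at a DESeq2 adjusted p under 0.05, beside 0.33% of all 14231 tested genes called higher and 0.0211% called lower. Among protein-coding genes of mean at least 500 the shares called were 0.336% higher and 0.036% lower. Before adjustment, 10 members were under 0.05 by the p implied by the authors' deposited table, beside 6.8% of all tested genes and 8.52% of protein-coding genes of mean at least 500. By limma on the recovered reads, 0 of 226 members were called and 12 (5.31%) had an unadjusted p under 0.05, beside 0.0942% and 9.15% of the 10620 genes recovered. Apart from the members and DROSHA, those genes had means up to 2500. A member's smallest adjusted p was 0.489 by limma, and 0.585 by DESeq2 in the authors' deposited table. By limma it was 0.0825 without the shallower knockdown library and 0.262 without the deeper one, and 5 to 8 members had an unadjusted p under 0.05 with 1 library left out.

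The fold changes of the ZNF genes were small. From the authors' deposited table, their log2 fold changes ran from -0.39 to 0.39 with a median of -0.016 and an SD of 0.156, and 0 of them were beyond 0.5 in either direction. The other 8082 protein-coding genes of mean at least 500 ran from -1.15 to 1.72 in that table, with a median of -0.054 and an SD of 0.194, and 118 of them were beyond 0.5. The 50 genes of other C2H2 families spread less than the members, from -0.27 to 0.26 with an SD of 0.121 in the authors' deposited table. Of the members, 105 (43.75%) had a log2 fold change above 0 in the authors' deposited table, beside 38.5% of protein-coding genes of mean at least 500 and 45.1% of all tested genes. These differences between lists were not tested.

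**Figure D1:**
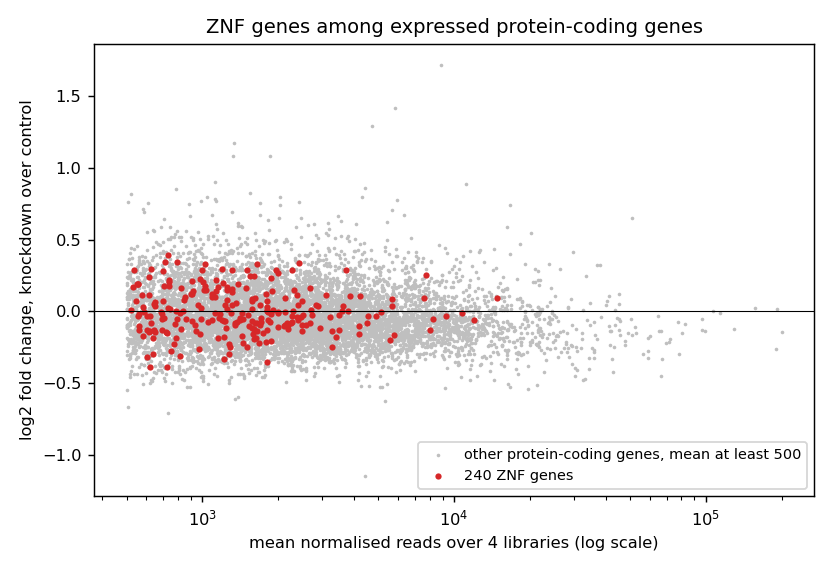
Log2 fold change (knockdown over control, vertical axis) against the mean of normalised reads over the 4 libraries (horizontal, log scale), both from the authors' deposited table. Each red point is 1 of the 240 ZNF genes and each grey point 1 of the other protein-coding genes of mean at least 500; the red points stay between -0.39 and 0.39.

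The 10 genes with the smallest adjusted p are given with their values in every library. They were picked by that p, so their separation is a description, and none passed the test. ZNF395, a transcription factor that binds the promoter of the Huntington disease gene, had 626 and 623 normalised reads in the deeper and shallower knockdown libraries, against 838 and 799 in the control libraries. Both knockdown libraries were below both control libraries. Its log2 fold change in the authors' deposited table was -0.39 (DESeq2 adjusted p = 0.585), and limma gave it a standard error (SE) of 0.15. ZNF768, which binds an ancient family of repeat elements, had 1603 and 1581 normalised reads in the knockdown and 2201 and 1858 in the control libraries. The control libraries stood further apart than the knockdown libraries, and the groups did not overlap. The authors' deposited table lists ZNF768 at a log2 fold change of -0.35 (DESeq2 adjusted p = 0.585). ZNF511 had 1086 and 1065 normalised reads in the knockdown and 1361 and 1352 in the control libraries, and ZNF48 had 497 and 580 in the knockdown and 720 and 688 in the control libraries. The symbol ZNF48 stands on a second row of the table, of mean 441, which is under the threshold and is not the gene described here. For both genes the knockdown libraries were the lower ones. Their log2 fold changes in the authors' deposited table were -0.33 for ZNF511 (DESeq2 adjusted p = 0.616) and -0.39 for ZNF48 (DESeq2 adjusted p = 0.647).

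The other 6 of these 10 genes were higher in both knockdown libraries than in either control library. ZNF721, a long run of 23 fingers by the pattern used here, had 2472 and 2938 normalised reads in the knockdown and 2104 and 2178 in the control libraries. Its log2 fold change was 0.34 (DESeq2 adjusted p = 0.601) in the authors' deposited table, with an SE of 0.13 by limma. The small protein ZNF706, whose mouse counterpart acts as embryonic stem cells leave the naive state, had 1968 and 1699 normalised reads in the knockdown and 1451 and 1463 in the control libraries. ZNF445, which holds parental imprints beside ZFP57, had 3938 and 4227 in the knockdown and 3465 and 3225 in the control libraries. The spread between the knockdown libraries was wider than that between the control libraries for ZNF721 and ZNF706. ZNF618, a partner of UHRF2 at hydroxymethylated DNA, had 738 and 925 normalised reads in the knockdown and 688 and 576 in the control libraries. ZNF654 had 914 and 856 in the knockdown and 693 and 702 in the control libraries. ZNF292, a gene mutated in neurodevelopmental disorders, had 2132 and 2190 in the knockdown and 1795 and 1742 in the control libraries. In the authors' deposited table the log2 fold changes of ZNF706, ZNF445, ZNF618, ZNF654 and ZNF292 were 0.33, 0.29, 0.39, 0.34 and 0.29, with DESeq2 adjusted p of 0.627, 0.669, 0.678, 0.680 and 0.697 in the same order. By limma, leaving out the shallower knockdown library gave a log2 fold change of 0.23 for ZNF618 and 0.21 for ZNF721, and leaving out the deeper control library gave -0.22 for ZNF768.

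**Figure D2:**
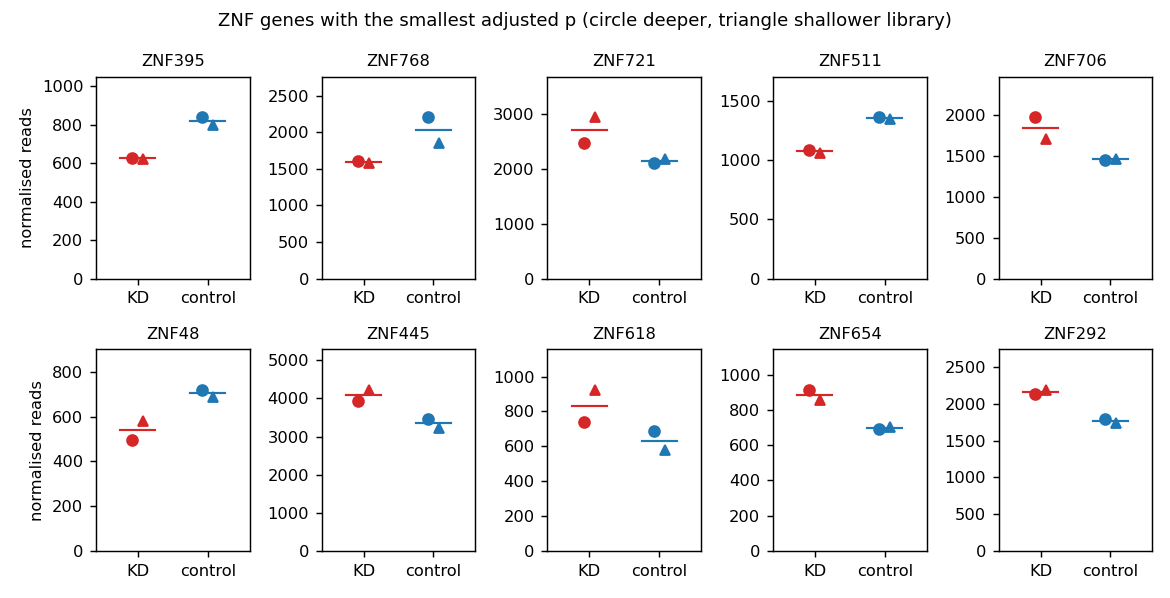
Normalised reads (vertical axis, from 0) of the 10 ZNF genes with the smallest adjusted p, knockdown (KD) in red and control in blue, with a circle for the deeper and a triangle for the shallower library and a line at the group mean. The groups do not overlap in any panel, and the separation is small against the level; ZNF395 has 626 and 623 in the knockdown against 838 and 799 in the control.

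Other genes at the ends of the range had like sizes. At the high end, ZNF407 had 805 and 788 normalised reads in the knockdown and 671 and 583 in the control libraries, and ZNF529 had 1248 and 1033 in the knockdown and 923 and 891 in the control libraries. The oncogene ZNF217, which is amplified in breast cancer and works with the corepressor CtBP, had 2201 and 2796 in the knockdown and 2090 and 1996 in the control libraries. The knockdown libraries were the higher ones for these 3 genes. The log2 fold changes of ZNF407, ZNF529 and ZNF217 in the authors' deposited table were 0.34, 0.33 and 0.29. At the low end, ZNF574 had 720 and 728 in the knockdown and 1056 and 743 in the control libraries, so that the shallower control library lay close to the knockdown libraries. ZNF385A, a partner of p53, had 449 and 701 in the knockdown and 769 and 639 in the control libraries, and its groups overlapped. ZNF277 overlapped as well, with 1043 and 1252 in the knockdown and 1219 and 1608 in the control libraries. The log2 fold changes of ZNF574, ZNF385A and ZNF277 in the authors' deposited table were -0.32, -0.30 and -0.30.

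The number of genes whose groups did not overlap was close to the background. Of the 226 members with recovered reads, 54 were higher in both knockdown libraries than in both control libraries and 37 were lower in both, together 40.3%. Apart from the members and DROSHA, reads were recovered only for genes of mean up to 2500. The share was 40.8% over all recovered genes (20.4% in each direction) and 42.2% over recovered protein-coding genes of mean at least 500. By direction, the share over those protein-coding genes was 17.8% higher and 24.4% lower. The lower side was thus the larger there, and the higher side was the larger in the members. This difference was not tested. In 167 of the 226, the gap between libraries of 1 group, in at least 1 of the groups, was larger than the log2 fold change in the authors' deposited table. No such count was made over other genes. A gap between single libraries varies more than a difference of group means, so this count is not shown to be particular to ZNF genes.

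The gaps between libraries of the same group leaned 1 way for the ZNF genes. The shallower library minus the deeper one had a median of 0.05 on the log2 scale in the knockdown and 0.09 in the control. Beside this stood 0.02 in the knockdown and -0.01 in the control for 4549 other protein-coding genes of mean at least 500. DROSHA apart, these other genes had means up to 2500, whereas members above 2500 were included. The gap was above 0 in 139 of 226 members in the knockdown and in 150 in the control. It was above 0 in both groups for 97 members (42.9%), beside 1148 of 4549 other genes (25.2%). In the other C2H2 families it was above 0 in both groups for 17 of 40 recovered genes (42.5%). Their median gap was 0.11 in the knockdown and 0.02 in the control. The lean was therefore not particular to ZNF genes. Summed over the 226 members, normalised reads were 333877 and 346396 in the deeper and shallower knockdown libraries, and 332621 and 350239 in the deeper and shallower control libraries. The sums of the groups therefore overlap. These sums rest on 364834 and 281753 reads in the knockdown and 409225 and 321502 reads in the control libraries. The median log2 fold change of the members by limma was -0.014 with all libraries, 0.054 without the shallower control library and 0.019 without the deeper knockdown library. The sign of that median turned with those libraries, and the part of depth in this was not tested.

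**Figure D3:**
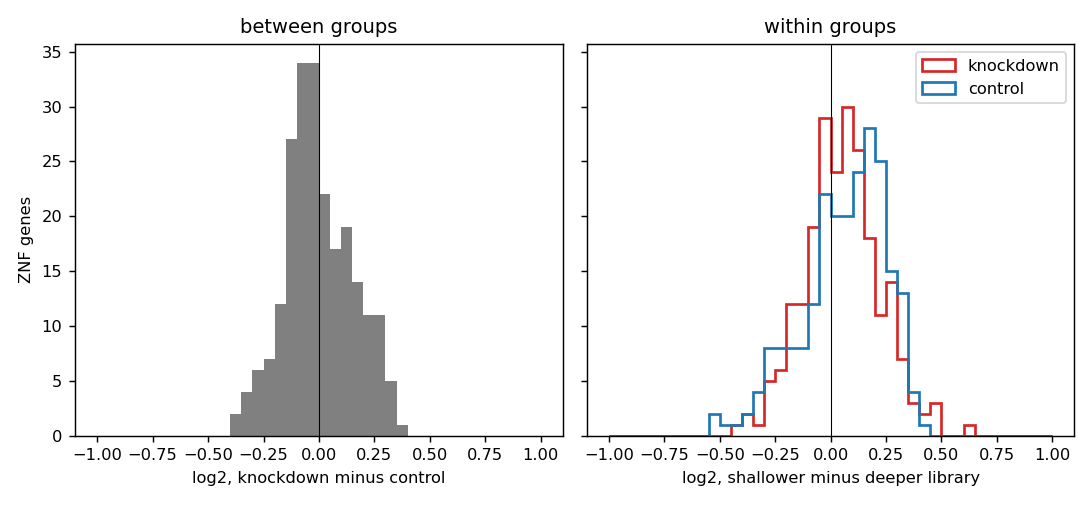
Number of ZNF genes (vertical axis) by log2 difference between groups (left panel, knockdown minus control) and between the libraries of 1 group (right panel, shallower minus deeper, knockdown in red and control in blue). The differences within groups span a wider range than those between groups, and the control gaps have a median of 0.09. A gap between single libraries varies more than a difference of group means, so the wider range is no result by itself.

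The fold changes of members with a KRAB box spread less than those of members without one. The pattern of a KRAB box was found in the translated coding sequence of 115 members and was missing in 124. From the authors' deposited table, KRAB members had a median log2 fold change of -0.008 with an SD of 0.123, and members without the pattern had a median of -0.025 with an SD of 0.182. The implied p was under 0.05 in 0 of the 115 KRAB members and in 10 of the 124 others, beside 8.52% of protein-coding genes of mean at least 500. The difference was not tested. A narrow spread was not particular to KRAB members, as the 26 ZBTB genes had an SD of 0.124 in the authors' deposited table. The gap between the control libraries had a median of 0.13 in KRAB members and 0.02 in the others. With another pattern, 128 members counted as KRAB, with a median of -0.003 in the authors' deposited table. The implied p was under 0.05 in 1 of these 128, ZNF445. This other pattern found 19 members that the first pattern did not, ZNF445 among them, and missed 6 that the first pattern found.

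KRAB proteins with known transposon targets had small differences. ZNF91, which represses SVA elements, had 773 and 791 normalised reads in the knockdown and 758 and 866 in the control libraries, with overlapping groups. ZNF93, which represses older LINE-1 elements, had 1224 and 1424 in the knockdown and 1178 and 1181 in the control libraries, the knockdown being higher in both. The log2 fold changes in the authors' deposited table were -0.05 for ZNF91 and 0.17 for ZNF93, and the DESeq2 adjusted p were 0.986 and 0.919. The SCAN box, a domain through which such proteins pair, was found in 13 members, whose median in the authors' deposited table was 0.009. ZNF746, a KRAB protein degraded through parkin, had 1535 and 1518 in the knockdown and 1926 and 1546 in the control libraries, and its groups did not overlap.

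The corepressor machinery that KRAB proteins use did not pass the test either. Of 37 listed genes, 36 had an adjusted p in the authors' deposited table, 0 of those were called by DESeq2, 1 had an implied p under 0.05, and 15 were above 0, with a median log2 fold change of -0.036. TRIM28, the scaffold that binds the KRAB box, had -0.15 (DESeq2 adjusted p = 0.918) and SETDB1 had -0.06 (0.975) in that authors' deposited table. The highest in the authors' deposited table were MPHOSPH8, a subunit of the HUSH silencing complex, at 0.44 and the deacetylase HDAC2 at 0.26. The lowest there were TRIM24 at -0.25 and the histone chaperone DAXX at -0.19. MPHOSPH8 had 890 and 1387 normalised reads in the knockdown and 869 and 808 in the control libraries, so its value leaned on the shallower knockdown library. ZFP57 had a mean of 1.39 in the authors' deposited table and no adjusted p.

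Members that work on ribosomes and RNA did not pass the test. ZNF598, the ubiquitin ligase that marks collided ribosomes, had 2520 and 2479 normalised reads in the knockdown and 3137 and 2204 in the control libraries. ZNF622, a factor of the large ribosomal subunit, had 1413 and 1736 in the knockdown and 1678 and 1653 in the control libraries. ZNF593, which also takes part in large-subunit assembly, had 1718 and 1856 in the knockdown and 2041 and 1685 in the control libraries. All 3 overlapped between groups. The log2 fold changes of ZNF598, ZNF622 and ZNF593 in the authors' deposited table were -0.10, -0.08 and -0.06. ZNF346, which binds double-stranded RNA and leaves the nucleus with exportin-5, the carrier of microRNA precursors, had 1132 and 1242 in the knockdown and 1323 and 1254 in the control libraries. The groups of ZNF346 were close but did not overlap, and its log2 fold change in the authors' deposited table was -0.12 (DESeq2 adjusted p = 0.951). ZNF326, which links splicing to elongation, had 1433 and 1522 in the knockdown and 1222 and 1364 in the control libraries, again without overlap and with an adjusted p of 0.890 by DESeq2 in the authors' deposited table.

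Members that regulate transcription and chromatin did not pass the test either. ZNF410, the activator of CHD4 that takes part in fetal globin silencing, had 1771 and 1549 normalised reads in the knockdown and 1909 and 1941 in the control libraries. The authors' deposited table gives it a log2 fold change of -0.21 (DESeq2 adjusted p = 0.857). In all, 85.5% of its 50-base stretches also occur in transcripts of other annotated genes, so its count is uncertain. ZNF143, a factor of promoters, had 1089 and 1204 in the knockdown and 1175 and 1195 in the control libraries. ZNF281, a factor of GC-rich promoters, had 2854 and 2913 in the knockdown and 2811 and 2771 in the control libraries. ZNF143 overlapped between groups, whereas both knockdown libraries of ZNF281 were slightly above the control libraries. ZNF592 and ZNF687, which share a complex with ZMYND8, overlapped too. ZNF592 had 2427 and 2979 in the knockdown and 2946 and 2558 in the control libraries, and ZNF687 had 1144 and 1186 in the knockdown and 1293 and 1069 in the control libraries.

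The level of the members spanned a wide range. Means over the 4 libraries ran from 521 to 14748 normalised reads in the authors' deposited table, with a median of 1352. The highest means there belonged to ZNF207, a spindle protein that loads BUB3 onto kinetochores, at 14748, and to ZNF146, made of fingers alone, at 11962, followed by ZNF121 at 10761 and ZNF24 at 9319. Per kb of principal transcript, the order was ZNF207 at 6460, ZNF146 at 3164 and ZNF593 at 2704 normalised reads. Reads of single libraries could not be settled for 14 members, the lowest of mean 4894 in the authors' deposited table, and ZNF207, ZNF146, ZNF121 and ZNF24 are among these. Their log2 fold changes in the authors' deposited table were 0.09 for ZNF207, -0.06 for ZNF146, -0.014 for ZNF121 and -0.03 for ZNF24. The largest log2 fold change among the 10 highest means was that of ZNF451, a SUMO ligase, at 0.25 in the authors' deposited table (DESeq2 adjusted p = 0.760).

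Genes next to the threshold of 500 had values on both sides of 0. Just inside it, ZNF500, ZNF432, ZNF564, ZNF311 and ZNF783 had means of 521, 530, 537, 547 and 551 and log2 fold changes of 0.009, 0.17, 0.29, 0.07 and 0.19 in the authors' deposited table. Just outside it, ZNF670, ZNF891, ZNF449, ZNF583 and ZNF79 had means of 496, 494, 489, 487 and 487 there, and log2 fold changes of -0.012, 0.21, -0.0020, -0.017 and 0.04 in the same authors' deposited table. Of the 275 ZNF rows under 500, 193 had an adjusted p and 0 were called by DESeq2 in the authors' deposited table. The implied p was under 0.05 in 4, beside 6.8% of all tested genes. Of these 193, 122 (63.2%) were above 0, and their median log2 fold change was 0.071 in the authors' deposited table. The share above 0 was 45.1% over all tested genes and 38.5% over protein-coding genes of mean at least 500. It was not computed for other genes of mean under 500, so the 63.2% is not shown to be particular to ZNF rows.

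The ZNF transcripts were long. The principal transcripts of the members had a median of 4023 nt, with 1755 nt of coding sequence and 1554 nt of 3′ UTR, beside 3198, 1368 and 1113 nt in the other protein-coding genes of mean at least 500. The same medians in the 50 genes of other C2H2 families were 4535, 1699.5 and 2492 nt, so long transcripts were not particular to ZNF genes. Half-lives are not measured by these libraries. The median number of finger patterns was 10 and the highest 31, in ZNF91, while 6 members had none. Across 239 members, Spearman's rho of the authors' deposited log2 fold change with transcript length was 0.11 and with coding length 0.05. The same rho over 8055 other genes were 0.22 and 0.25. By number of fingers, the medians in the authors' deposited table were -0.032 for the 46 members with fewer than 5, -0.009 for the 142 with 5 to 14 and -0.044 for the 51 with 15 or more. The 99 members on chromosome 19, where the large ZNF clusters lie, had a median of -0.028 in the authors' deposited table, and the 140 on other chromosomes had -0.010. These splits were not tested.

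No member with microRNA site letters passed the test. With TGAATGT in the coding sequence, the 149 members had a median log2 fold change of -0.006 with 48.3% above 0 in the authors' deposited table, and the 90 without it had -0.043 with 36.7% above 0. The 60 members with 5 or more matches, a part of the 149, had a median of -0.019 in the authors' deposited table. Spearman's rho between the number of matches and the authors' deposited log2 fold change was 0.07 across 239 members and 0.10 across 8055 other protein-coding genes. ZNF717, with the sites printed above, had 587 and 607 normalised reads in the knockdown and 612 and 608 in the control libraries, a log2 fold change of -0.03 in the authors' deposited table. ZNF12 had 1922 and 1772 in the knockdown and 1681 and 1830 in the control libraries, with overlapping groups. Members with the miR-17-5p letters in the 3′ UTR, 84 in number, had a median of 0.004 in the authors' deposited table, and the 155 without had -0.032. No difference between these lists was tested. The number of TGAATGT matches went with the number of fingers, at a Spearman's rho of 0.45 across 239 members.

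**Figure D4:**
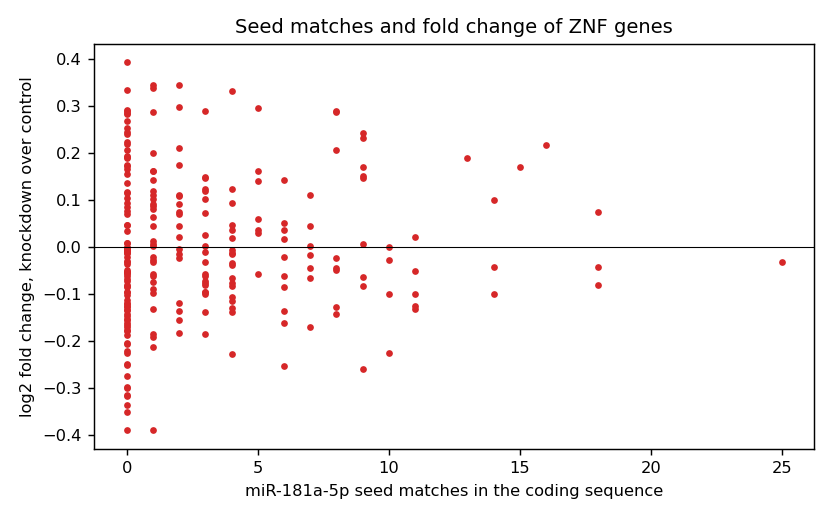
Log2 fold change (knockdown over control, from the authors' deposited table, vertical axis) against the number of TGAATGT matches in the coding sequence (horizontal), 1 point for each ZNF gene with a transcript match. Points lie on both sides of 0 from 0 to 9 matches; ZNF717 with 25 matches lies at -0.03.

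The table holds a second log2 value for each of 182 members, under a header that names the coding sequence and 5′ UTR. Neither the assay nor the direction is stated, so the values are given as deposited. In the authors' deposited table it had a median of 0.11 and an SD of 0.953 in the members, with 100 values above 0, 76 below and 6 at 0. The other protein-coding genes of mean at least 500 had a median of 0.11 and an SD of 0.691 there. It was 1 or more in size in 51 members (28.0%) and in 14.04% of the other genes. In the authors' deposited table it was highest for ZNF500 (2.78), ZNF567 (2.22), ZNF257 (2.17), ZNF780A (2.0) and ZNF398 (1.95). It was lowest in the authors' deposited table for ZNF746 (-2.82), ZNF100 (-2.39), ZNF717 (-2.17), ZNF397 (-2.03) and ZNF562 (-2.01). The read-based log2 fold changes of ZNF500 and ZNF746 in the authors' deposited table were 0.009 and -0.19, and across the 182 members Spearman's rho between the values was 0.04.

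Most of these second values are the log2 of a ratio of small whole numbers. Within a tolerance of 1e-12, 178 of the 182 (97.8%) equalled such a ratio, with terms up to 2000 below the line, beside 87.4% of the other genes. In the authors' deposited table the value of ZNF500 is that of 48 over 7 and the value of ZNF746 that of 17 over 120. The larger term of the reduced ratio had a median of 24.5 in members and 62 in the other genes, and was under 20 in 44.0% of the members against 25.1% of the other genes. The members' SD was 0.945, 1.03 and 0.879 for larger terms of 1 to 19, 20 to 99 and 100 to 2000, beside 0.772, 0.796 and 0.643 in the other genes, so it was wider in each class. In the authors' deposited table the other C2H2 families had like values, with an SD of 0.925 over 39 values, 25.6% at 1 or more in size and 53.8% with a larger term under 20. ZNF816 and the read-through gene ZNF816-ZNF321P share 1 value (-1.70) in the authors' deposited table.

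**Figure D5:**
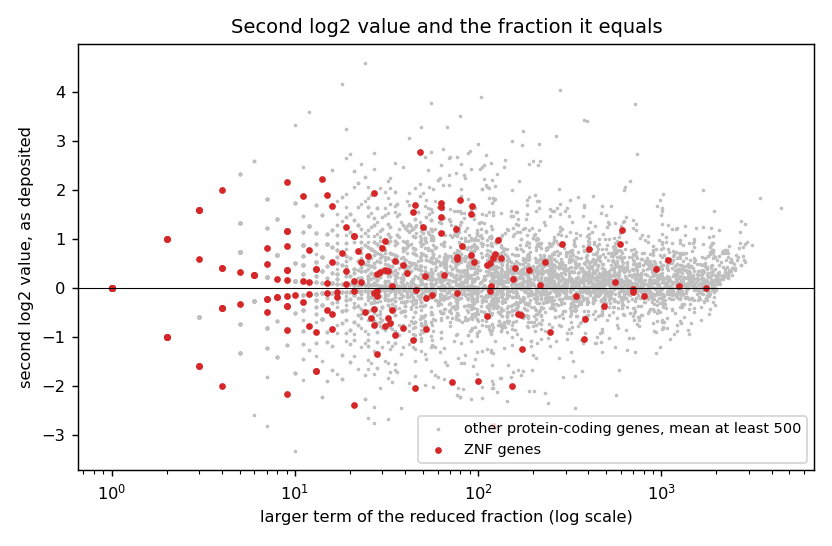
Second log2 value (vertical axis, as deposited) against the larger term of the reduced ratio it equals (horizontal, log scale), ZNF genes in red and other protein-coding genes of mean at least 500 in grey. ZNF genes crowd at small terms, with a median of 24.5, and spread widely at every size of term.

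Some members share sequence with other genes, and their counts are uncertain. Of all 50-base stretches of the principal transcript, a median of 0.807% per member also occurred in transcripts of another gene, 87 members shared none and 19 shared at least 20%. ZNF320 shared 99.5% with other genes, more with ZNF468 than with any other, ZNF816-ZNF321P shared 96.3% and ZNF511-PRAP1 95.4%. ZNF395 shared 41.7% and ZNF511 31.1%. These 19 members had a median log2 fold change of -0.113 in the authors' deposited table, with 5 above 0. How the authors counted such reads was not given in the sources used here.

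The other C2H2 families are the sets most like the ZNF genes. Of 50 genes named ZBTB, ZSCAN, ZKSCAN or ZFP at a mean of at least 500, 0 were called by DESeq2 in the authors' deposited table, 0 had an implied p under 0.05, 22 were above 0 and the median was -0.032. The 26 ZBTB genes, which pair fingers with a BTB domain, had a median of -0.051 and the 10 ZSCAN genes one of 0.069 in the authors' deposited table.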

How the data were processed

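The authors deposited 1 table for the series, with 58037 rows. Per the file headers its columns are a normalised read signal averaged over the libraries, 1 log2 fold change with its adjusted p-value and, for 8636 rows, a second log2 value. The authors used DESeq2 1.24.0, STAR 2.6.0a and Bowtie2 2.3.4.1 with build hg38, per the submitters' processing notes. How reads were assigned to genes, with or without strand, and from which annotation was not given in the sources used here, so overlapping and antisense genes can share reads. The table has 0 columns of single libraries. The deposited adjusted p-values were called at 0.05, beside their fold changes. The implied p comes from undoing the Benjamini-Hochberg adjustment; it is an upper limit for the 231 members whose adjusted values are tied.

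Reads of each library were recovered from the deposited means, which are sums of whole reads divided by 4 size factors (1.09 and 0.813 knockdown, 1.23 and 0.918 control), with the side set by the fold changes of single-read genes. In 300 of 300 genes of mean 30 to 300, the mean alone gave 1 combination of reads, and the deposited fold change, not used there, lay in the range those reads allow. With the fold change as well, 10593 of 10593 tested genes of mean up to 2500 and 226 of 240 members had 1 combination. Other genes of mean above 2500 were left out, DROSHA apart. Total depth is unknown. limma 3.58.1 (R 4.3.3, with a trend) was run on log2(normalised reads + 1) of 10620 recovered genes, with Benjamini-Hochberg adjustment, as an alternative chosen after the data were seen and checked on simulated data. The edgeR and DESeq2 packages were not run on the recovered reads.

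Sequence features came from GENCODE 29 (GRCh38) principal transcripts, translated in place of a protein table not used here. KRAB, SCAN and finger patterns and 7-letter sites were searched by script. Named genes were, by rule, the 10 with the smallest adjusted p, the 10 highest and 10 lowest fold changes, the 10 highest means, the 5 highest and lowest second values, those next to the threshold, and a list of genes of known role, of which ZNF532, ZNF462 and ZNF585A are not members; the report gives a selection of these. ZNF12, ZNF816, ZNF816-ZNF321P, ZNF320 and the genes highest per kb were named after their values were seen. The members and lists were chosen with earlier results of these data known. One further marker of the K562 list is not reported here. The alternatives were other thresholds, memberships and centrings, limma settings and leaving out each library.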

Additional observations from a re-analysis of the deposited data

How the results depend on the processing

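The count of called members was 0 higher and 0 lower in all settings tried with all 4 libraries. Among these were adjusted p under 0.01 or 0.1, a log2 fold change of at least 1 as well, and Bonferroni adjustment. A mean of at least 1000 and a mean of at least 200 were among them too. The smallest deposited adjusted p by DESeq2 was 0.585 in members and 0.194 in ZNF rows of mean under 500. Those settings could therefore only give 0. The others were adjustment again over protein-coding genes, and limma. The limma settings were pseudocount 1 or 0.5, median-centred libraries, or only genes of mean at least 500. The share of members above 0, 43.75% as deposited, was 52.9% after re-centring on all tested genes and 59.6% after re-centring on protein-coding genes of mean at least 500, and it ran between 38.5% and 60.2% with each library left out (60.2% without the shallower control and 55.3% without the deeper knockdown library). Their median log2 fold change, -0.016 as deposited, was 0.037 after re-centring on protein-coding genes of mean at least 500 and ran between -0.065 and 0.054 with each library left out. The median second log2 value, 0.113 as deposited, was 0.043 at a mean of at least 200 and 0.0056 after re-centring on all rows that have one. The causes were not tested, apart from the shift that re-centring makes by construction. The 10 genes with the smallest adjusted p kept their sign in 90 of 90 settings. Their groups did not overlap, so leaving out 1 library could not turn a sign, and the other settings moved their values little. The kept signs are therefore no check of these genes. With each library left out, ZNF618 ran between 0.23 and 0.55, ZNF721 between 0.21 and 0.46 and ZNF706 between 0.22 and 0.43 on the log2 scale. ZNF768 ran between -0.47 and -0.22 and ZNF48 between -0.50 and -0.28. DROSHA kept its call in every limma setting, at -1.16 to -1.14 on the log2 scale, and its adjusted p stayed at or under 0.0404. Over all recovered genes limma called 9 higher and 1 lower, but 79 and 10 without the deeper knockdown library and 117 and 49 without the shallower one. Where a library is left out, the lone library of its group is assumed to vary like the other group. No paired analysis was possible because the recovered libraries carry no replicate numbers. The median SE of a member's log2 fold change by limma was 0.141, with 2 libraries a group.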
